A study of Mus musculus with 108 samples.

Results

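The transporters examined here were the autosomal protein-coding mouse genes with symbols beginning Abca, Abcb, Abcc, Abcd, Abcg or Slco. The rule found 58 genes among 20021 autosomal protein-coding genes with a curated RefSeq transcript in the mouse genome build mm10 (GRCm38). They were 16 Abca, 9 Abcb, 10 Abcc, 3 Abcd, 6 Abcg and 14 Slco genes. Slco6b1, which is annotated as a non-coding gene, fell outside the rule.

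ATP-binding cassette (ABC) proteins use the energy of ATP to move lipids, bile salts, conjugated toxins and drugs across membranes, and Slco genes encode the organic anion transporting polypeptides, which bring such compounds into cells. In the liver, uptake carriers sit on the blood-facing side of the hepatocyte and export pumps on the canalicular side, where bile is formed. The remaining relatives work in mitochondria, peroxisomes and lysosomes, or chiefly in other organs such as lung, retina, skin, brain, kidney and testis.

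The series mapped 4 histone H3 modifications by ChIP-seq in formalin-fixed, paraffin-embedded livers of inbred C57BL/6 female mice. The SD 3m group (8 mice, 30 libraries) and the SD 12m group (8 mice, 29 libraries) ate a standard diet until 3 and 12 months of age, and the CR 12m group (9 mice, 29 libraries) was kept on a 30% caloric restriction diet from 3 months on and examined at 12 months. A group of 6 mice on standard diet at 6 months belongs to the series and was not analysed here. The authors merged the libraries of each group and mark and assigned every 200 bp bin of the genome to 1 of 8 chromatin states, so each group is represented by 1 segmentation, no difference between groups can be tested against the variation between mice, and no p-value is given. State 1 (active TSS, for transcription start site) carries H3K4me3 and H3K27ac, and state 2 (flanking TSS) carries H3K4me1 as well. State 3 (active enhancer 1) holds H3K27ac with H3K4me1, state 4 (active enhancer 2) H3K27ac, and state 5 (poised enhancer) mainly H3K4me1. State 6 is the H3K27me3-marked Polycomb state, state 7 is an age-related state with weak signals, and state 8 is quiescent.

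Numbers of merged libraries differed between groups: H3K4me3 came from 7, 8 and 5 libraries in SD 3m, SD 12m and CR 12m, H3K27me3 from 7, 8 and 6, H3K27ac from 8, 7 and 9, and H3K4me1 from 8, 6 and 9. Values given in threes below keep this order of the groups. Read depth is unknown from the files. Over the whole genome, states 1 and 2 covered 0.414% and 1.13% of bins at 3 months, 0.363% and 0.425% at 12 months on the standard diet, and 0.300% and 0.361% under restriction, while state 7 covered 1.89%, 11.4% and 4.15%. Library numbers, age and diet therefore cannot be told apart as sources of a general shift in state. All 8 hepatocyte markers (Alb, Ttr, Apoa1, Apob, Cps1, Hnf4a, Tat and Serpina1b) had a TSS bin in states 1 to 5 in every group. The same held for 3, 4 and 5 of 5 endothelial markers, 2, 1 and 1 of 4 Kupffer cell markers, 2, 1 and 1 of 5 stellate cell markers, 2, 3 and 4 of 5 cholangiocyte markers and 2, 2 and 1 of 5 lymphocyte markers. In whole liver, fewer cells of a type and less of a mark per cell cannot be told apart.

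At the TSS bin, the transporters lay mostly in active states in all groups, and their number in the TSS states 1 and 2 was 24, 20 and 17 of 58. As shares these were 41.4% (95% Wilson interval 29.6% to 54.2%), 34.5% (23.6% to 47.3%) and 29.3% (19.2% to 42.0%). Over all 20021 genes the shares were 46.4%, 40.5% and 35.7%, which is the same order of groups. States 1 to 5 together held the TSS bin of 43, 42 and 40 transporters (74.1%, 72.4% and 69.0%, against 63.0%, 63.1% and 63.4% of all genes). The intervals cover counting error only and test no difference between groups, since the same genes are counted in each and neighbouring genes are not independent. State 3 held 6, 9 and 14 of the transporter TSS bins, state 2 held 11, 4 and 9, and state 1 held 13, 16 and 8. Over all genes, state 3 held 1070, 1541 and 2553, state 2 held 2161, 1074 and 1045, and state 1 held 7137, 7041 and 6112. Read as the most frequent class among the 21 bins within 2 kb of the start, the TSS class held 18, 7 and 6 transporters. No all-gene count is given for this reading. States 1 and 2 made up 29.3%, 17.98% and 15.2% of the bins within 2 kb for the transporters. For all genes the shares were 33.4%, 21.6% and 18.96%, also lower in both 12-month groups. In the plot of TSS states, the red and orange segments summed are lower in both 12-month groups, for the transporters and for all genes, while the red segment of the transporters (state 1) alone is highest in SD 12m.

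**Figure D1:**
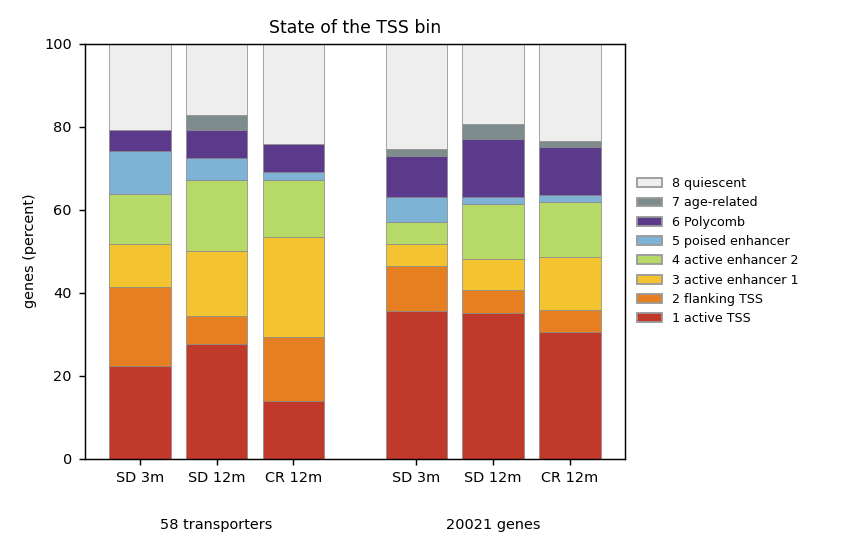
Percent of genes (y axis) whose TSS bin lay in each of the 8 states, for the 58 transporters and for all 20021 genes in SD 3m, SD 12m and CR 12m (x axis). States 1 and 2 together fall from 41.4% to 34.5% and 29.3% of the transporters, and from 46.4% to 40.5% and 35.7% of all genes.

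The TSS bin kept its class (states 1 and 2, states 3 to 5, state 6, state 7 or state 8) in all 3 groups in 33 of the 58 transporters (56.9%, against 66.4% of all genes), and it kept the very same state in 20 (34.5%, against 54.9%). Abcb10, Abcc4, Abcc5, Abcc10 and Abcd3 stayed in state 1 throughout, and Abca3 and Abcc3 stayed in state 2. Another 8 were quiescent at the TSS bin in every group: Abca12, Abca13, Abcb1a, Abcb5, Abcc8, Abcc12, Abcg2 and Slco1a6. Between SD 3m and SD 12m, 16 transporters changed class (27.6%, against 22.9% of all genes). Of these, 7 went from the TSS class to the enhancer class, 3 went the other way, and the others involved state 6, 7 or 8. Between SD 3m and CR 12m, 21 changed class (36.2%, against 25.9% of all genes), 11 from the TSS to the enhancer class and 4 the other way. Over all genes, the TSS class held 9298, 8115 and 7157 starts and the enhancer class 3317, 4520 and 5544. The net direction was thus the same, and no all-gene count is given for each kind of move. Between SD 12m and CR 12m, 13 changed class (22.4%, against 19.9% of all genes). The comparisons with SD 3m share that segmentation.

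Widening the view to the 21 bins within 2 kb of the TSS showed where the TSS states lay. At least 1 bin of state 1 or 2 was present around 35, 30 and 28 transporters (60.3%, 51.7% and 48.3%, against 54.6%, 50.7% and 48.1% of all genes). The bins of states 1 and 2 sat mainly downstream of the start: 255, 170 and 151 bins lay downstream, against 78, 29 and 17 upstream. The downstream share was thus 76.6%, 85.4% and 89.9% for the transporters, and 62.4%, 68.6% and 70.3% over all genes. Fewer such bins than in SD 3m were found around 30 transporters in SD 12m (51.7%, against 48.1% of all genes) and around 31 in CR 12m (53.4%, against 50.5%). More were found around 4 in each: Abcb4, Abcb9, Abcc2 and Abcd2 in SD 12m, and Abcb4, Abcb9, Abcb11 and Abcc2 in CR 12m (3.55% and 2.37% of all genes). When the lowest state number of the TSS bin and its neighbours was read, 12 transporters changed class in SD 12m and 15 in CR 12m. Of these, 11 and 14 were also called from the TSS bin alone. The wider reading has no all-gene count beside it.

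**Figure D2:**
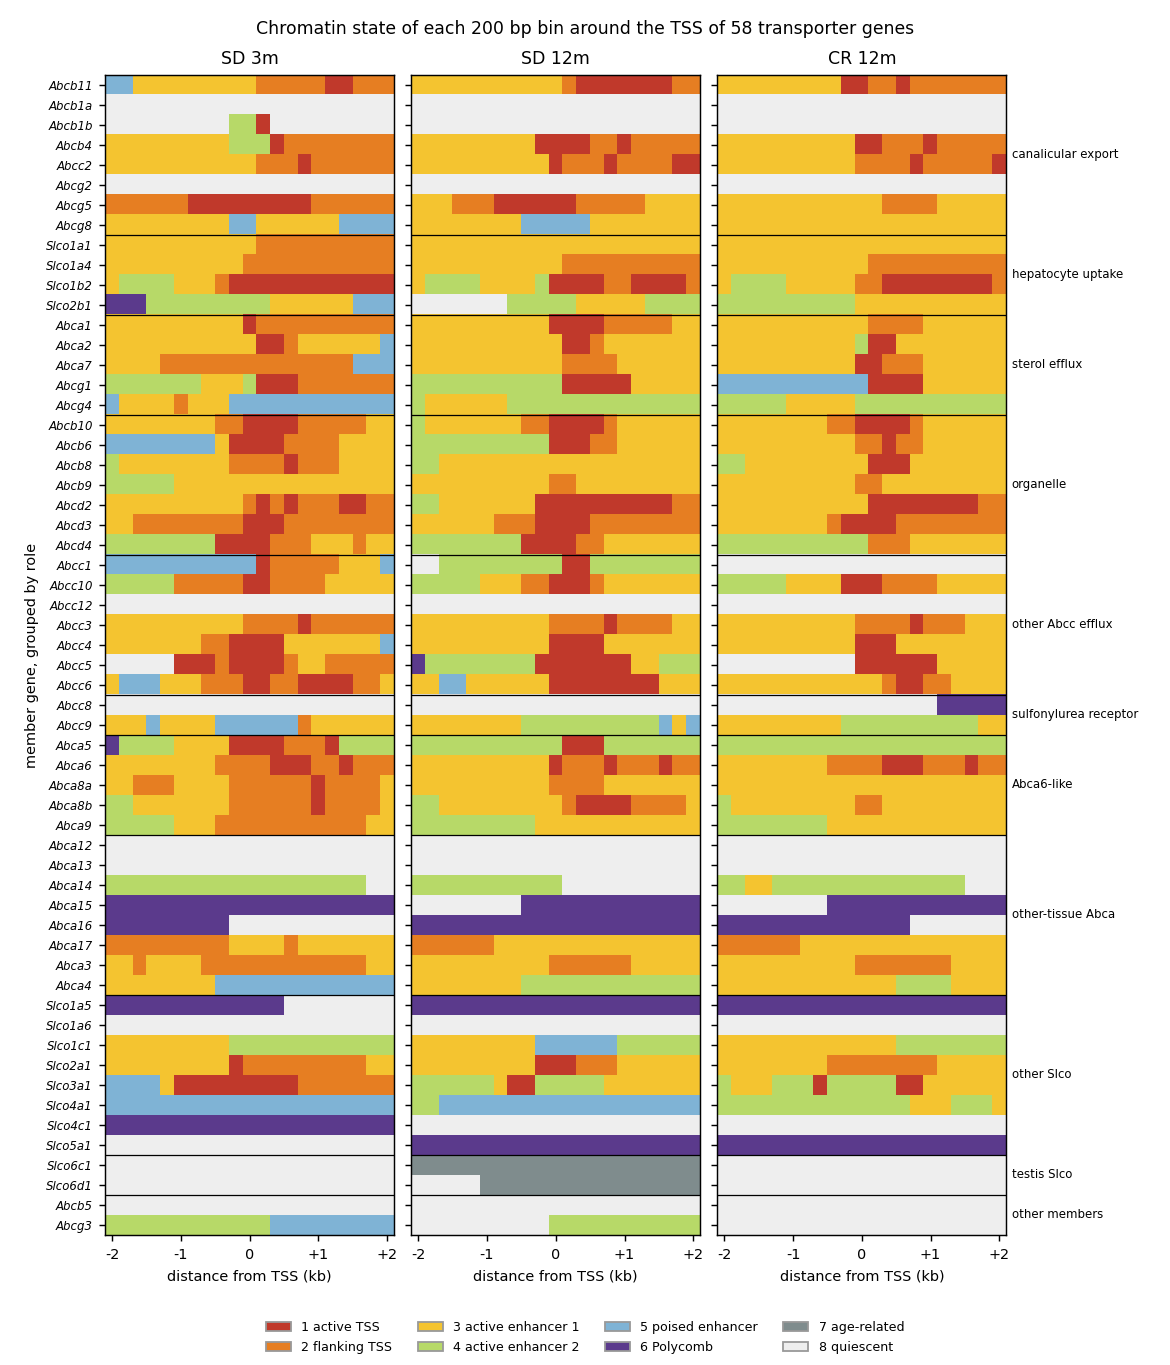
State of each 200 bp bin (colour) from 2 kb upstream to 2 kb downstream of the TSS (x axis, kb along the gene) for the 58 transporters (rows, grouped by role) in the 3 groups. States 1 and 2 lie mainly to the right of the start, with 255, 170 and 151 such bins downstream.

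The canalicular pumps make bile, and most of them were covered by active states over the gene body, but the state of the start differed from pump to pump. Abcb11, the bile salt export pump (chr2:69238282-69342616, minus strand), had its TSS bin in state 3, 3 and 1. All 10 bins downstream of it lay in state 1 or 2 in each group, and in CR 12m the domain also took in the TSS bin and 1 bin upstream. States 1 to 5 covered 76.3%, 96.0% and 93.5% of its body, and the rise in SD 12m was among the 5 largest. Abcb4, which flips phosphatidylcholine into bile (chr5:8893721-8959226, plus strand), changed from state 4 to state 1 in both 12-month groups, and its whole body was active in every group. Within its body, state 3 grew from 43.5% to 62.9% and 75.1% of bins. Abcc2, the pump for conjugated bilirubin (chr19:43782308-43838218, plus strand), was in state 3, 1 and 2 at the TSS bin, again with an active body throughout and all 10 downstream bins in TSS states. Its body share of state 3 was 68.3%, 85.4% and 91.5%.

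Abcg5 and Abcg8 encode the partner subunits of the sterol pump and start close to each other on opposite strands of chromosome 17 (chr17:84658174-84700333 for the pair). The Abcg5 TSS bin was in state 1, 1 and 3. Of the 21 bins around it, 21, 14 and 4 lay in TSS states, so the domain was shorter in both 12-month groups and shortest in CR 12m. The longest Abcg8 transcript starts 6819 bases upstream of a second curated start. The far start was in state 5, 5 and 3, and the near one, which lies in the Abcg5 domain, in state 1, 1 and 3 with 21, 14 and 4 TSS-state bins. The bodies were active to 100% for Abcg5 in every group and to 89.3%, 100% and 100% for Abcg8. As the genes overlap, their values are not independent.

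Drug pumps of the canalicular list differed in the state of their starts. Abcb1a and Abcb1b encode the mouse forms of P-glycoprotein. Abcb1a was quiescent at the TSS in all groups with 33.5%, 24.3% and 31.1% of its body active, and Abcb1b went from state 4 to state 8 in both 12-month groups with 11.1%, 9.94% and 10.2% active. Around the Abcb1b start a single bin of state 1 in SD 3m had no counterpart later, and state 6 covered 29.2% of its body in SD 3m and 0% in the others. Abcg2, an exporter of drugs and urate (chr6:58584533-58692449, plus strand), was quiescent at the start of its longest transcript, but the curated starts 12139 and 56013 bases downstream lay in state 1 in every group. TSS-state bins around those starts fell in number, from 13 to 5 and 5 at the first and from 11 to 4 and 5 at the second. Another curated start, 11427 bases downstream, was in state 5, 7 and 5 with 9, 5 and 5 TSS-state bins. The Abcg2 body was 64.3%, 43.6% and 70.6% active. It fell by 20.7 points in SD 12m and stood above its SD 3m level in CR 12m.

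The promoters of 5 canalicular genes are printed here because their TSS bins include the changes just described and the bin that went quiescent. RefSeq promoter sequences (GRCm38.p6) were found for 46 of the 58 transporters and span 250 bases before to 50 after the start. Capitals mark matches on either strand to 4 motifs. The letters TATAAA are the core of a TATA box, and GGGCGG is a GC box. The core element bound by many nuclear receptors reads AGGTCA. Part of the hepatocyte nuclear factor 1 element reads GTTAAT. The sequences lie at chr2:69342567-69342866 on the minus strand for Abcb11, chr19:43782058-43782357 on the plus strand for Abcc2, chr5:8893471-8893770 on the plus strand for Abcb4, chr5:8797897-8798196 on the plus strand for Abcb1b and chr17:84682962-84683261 on the minus strand for Abcg5.
Abcb11: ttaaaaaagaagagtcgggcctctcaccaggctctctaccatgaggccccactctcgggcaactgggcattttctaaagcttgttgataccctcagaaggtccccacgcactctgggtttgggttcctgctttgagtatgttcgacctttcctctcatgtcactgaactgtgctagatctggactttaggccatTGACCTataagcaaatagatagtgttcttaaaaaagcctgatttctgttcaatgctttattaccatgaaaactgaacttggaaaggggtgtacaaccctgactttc
Abcc2: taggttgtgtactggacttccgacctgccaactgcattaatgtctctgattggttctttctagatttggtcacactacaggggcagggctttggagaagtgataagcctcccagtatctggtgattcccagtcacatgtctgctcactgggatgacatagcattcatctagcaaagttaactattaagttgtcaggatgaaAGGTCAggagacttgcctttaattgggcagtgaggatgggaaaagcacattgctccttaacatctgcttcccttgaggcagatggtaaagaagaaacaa
Abcb4: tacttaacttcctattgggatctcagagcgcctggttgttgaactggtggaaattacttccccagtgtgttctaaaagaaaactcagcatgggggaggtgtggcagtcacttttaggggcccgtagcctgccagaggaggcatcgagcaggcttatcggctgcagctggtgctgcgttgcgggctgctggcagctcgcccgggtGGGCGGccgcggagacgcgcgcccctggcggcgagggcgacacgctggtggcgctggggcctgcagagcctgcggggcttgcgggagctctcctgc
Abcb1b: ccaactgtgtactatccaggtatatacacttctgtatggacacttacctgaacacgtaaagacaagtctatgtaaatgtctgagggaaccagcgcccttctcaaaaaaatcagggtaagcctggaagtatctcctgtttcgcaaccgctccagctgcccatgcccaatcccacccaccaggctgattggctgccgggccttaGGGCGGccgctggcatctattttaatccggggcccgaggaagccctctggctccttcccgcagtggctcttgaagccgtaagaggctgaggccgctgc
Abcg5: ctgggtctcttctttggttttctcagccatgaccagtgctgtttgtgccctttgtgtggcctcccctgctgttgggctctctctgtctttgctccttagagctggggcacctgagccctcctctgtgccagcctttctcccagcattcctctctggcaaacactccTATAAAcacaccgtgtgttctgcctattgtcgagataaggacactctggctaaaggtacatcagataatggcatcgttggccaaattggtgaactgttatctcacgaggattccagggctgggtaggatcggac
The Abcb11 and Abcc2 promoters hold 4 and 1 CpG dinucleotides and an AGGTCA match that begins 56 and 49 bases before the start. Abcb4 and Abcb1b hold 21 and 12 CpG and a GC box 46 and 48 bases before it. Abcg5 holds 5 CpG and a TATAAA match 84 bases before the start. A match describes letters only, and no binding was measured.

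The uptake carriers of the hepatocyte had active starts and bodies in all 3 groups, but lower body coverage in SD 12m for 2 of the 4. Slco1b2, which takes up bilirubin and bile acids (chr6:141629518-141686646, plus strand), was in state 1, 1 and 2 at the TSS bin with all 10 downstream bins in TSS states in each group. Its body was active to 100%, 95.1% and 100%. State 5 made up 24.4%, 44.6% and 3.48% of it, and state 4 made up 24.7%, 0% and 31.0%. Slco1a1, an organic anion carrier (chr6:141907281-141946962, minus strand), stayed in state 3 at the TSS bin, but the 10 downstream bins that were in TSS states in SD 3m were in enhancer states in both 12-month groups. Its body was 100%, 74.9% and 100% active, and it fell by 25.1 points in SD 12m, more than any other of the 58 transporters. Slco1a4, its neighbour with overlapping substrates, moved from state 2 to state 3 at the TSS bin in both 12-month groups while its 10 downstream bins stayed in TSS states. Its body was active to 85.5%, 86.3% and 100%. Slco2b1, a carrier of steroid sulfates (chr7:99657804-99711340, minus strand), had a fully active body in every group and state 4, 4 and 3 at its longest start. Around its curated start 4498 bases downstream, 8, 0 and 0 bins were in TSS states, and around the one 15531 bases downstream, 9, 2 and 5.

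The promoters of Slco1b2 (chr6:141629268-141629567, plus strand) and Slco1a1 (chr6:141946913-141947212, minus strand) are shown because neither holds a CpG although both starts were in active states.
Slco1b2: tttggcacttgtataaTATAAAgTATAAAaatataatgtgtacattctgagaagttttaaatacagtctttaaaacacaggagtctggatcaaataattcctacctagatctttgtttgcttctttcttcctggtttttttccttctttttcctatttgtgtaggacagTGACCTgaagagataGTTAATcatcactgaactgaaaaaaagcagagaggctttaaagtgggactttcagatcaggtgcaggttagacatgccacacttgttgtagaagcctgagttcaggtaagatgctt
Slco1a1: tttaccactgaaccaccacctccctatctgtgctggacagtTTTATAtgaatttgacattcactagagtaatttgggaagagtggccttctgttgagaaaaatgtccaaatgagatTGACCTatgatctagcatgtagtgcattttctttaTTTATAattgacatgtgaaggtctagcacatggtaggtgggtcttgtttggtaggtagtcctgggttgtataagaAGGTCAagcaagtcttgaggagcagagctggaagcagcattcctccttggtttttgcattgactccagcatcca
Capitals are as above. In Slco1b2 they mark an AGGTCA match 81 bases and a GTTAAT match 66 bases before the start, besides TATAAA far upstream. It was the only one of the 46 transporter promoters to hold GTTAAT, which 6.23% of the promoters of all 15660 matched genes contain. In Slco1a1 they mark AGGTCA 134 and 24 bases before the start and TATAAA on the opposite strand. AGGTCA was found in 7 of the 46 transporter promoters (15.2%, against 14.02% of all matched genes), TATAAA in 10 (21.7%, against 13.4%) and GGGCGG in 17 (37.0%, against 48.4%).

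Along chromosome 6, active and inactive stretches alternate over the 6 Slco1 genes. The neighbours Slco1a4 and Slco1a1 with the sequence between them (141.5 kb) were in states 1 to 5 over 89.7%, 80.4% and 98.6% of bins. Slco1a6 and Slco1a5 (237.2 kb), relatives with little known role in liver, were in these states over 2.02%, 2.27% and 0%. There, state 7 covered 34.8%, 18.96% and 12.0% and state 6 covered 10.9%, 14.7% and 15.6%. The Slco1a5 TSS bin was in state 6 in every group. Slco1c1, a thyroid hormone carrier of the brain, had enhancer states around its start in every group but only 9.13%, 8.26% and 5.65% of its body active.

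**Figure D3:**
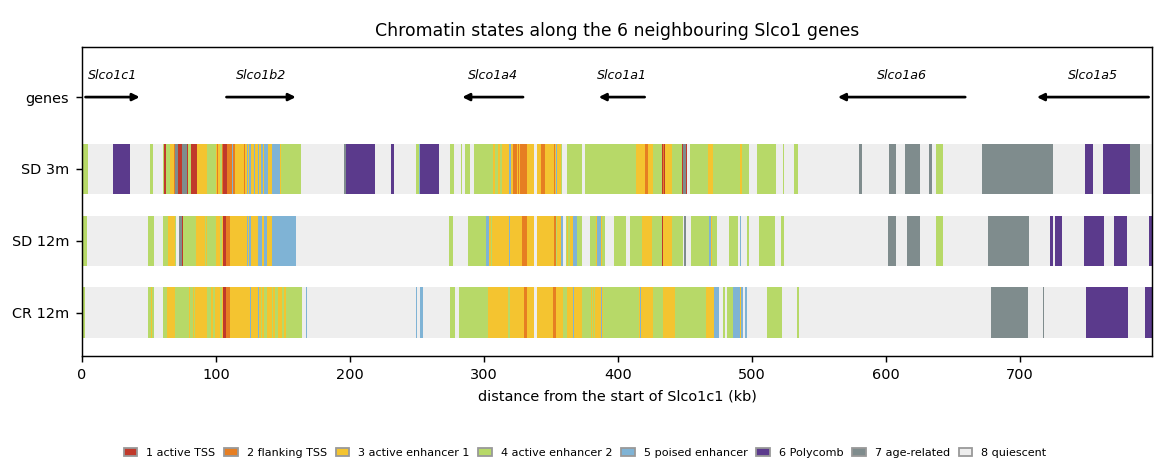
States (colour) along the 6 neighbouring Slco1 genes in the 3 groups (rows), with distance from the start of Slco1c1 in kb on the x axis and arrows for gene bodies in the direction of transcription. The stretch of Slco1a4 and Slco1a1 is active over 89.7%, 80.4% and 98.6% of bins, and that of Slco1a6 and Slco1a5 over 2.02%, 2.27% and 0%.

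The sterol exporters and their relatives were active at the start in every group, and the active share of the body rose by 10 points or more in 3 of the 5 in SD 12m and 4 of the 5 in CR 12m (11.9% and 15.3% of all genes). Abca1, which loads cholesterol onto apolipoprotein A-I (chr4:53030789-53159895, minus strand), was in state 1, 1 and 3 at the TSS bin, with 11, 9 and 4 TSS-state bins around it. Its body was active to 90.3%, 81.3% and 94.1%. Abcg1, which passes cholesterol to high-density lipoprotein, was in state 4, 4 and 5 with 10, 5 and 4 TSS-state bins and a body active to 63.2%, 60.9% and 74.8%. Both of these efflux genes therefore had fewer TSS-state bins at 12 months. Abca7, a phospholipid exporter, was in state 2, 3 and 1 with a body active to 85.4%, 100% and 100%. Abcg4, a sterol exporter best known from brain (chr9:44273190-44288244, minus strand), showed the largest rise of all 58 in both comparisons. Its body went from 32.5% active, split between states 4 and 5, to 100% in both 12-month groups, all of it state 4. Abca2, a lipid transporter abundant in brain (chr2:25428599-25448540, plus strand), went from 17.8% to 60.4% and 67.3%, with state 4 at 0%, 37.6% and 50.5%. Both are short genes, of 15.1 and 19.9 kb.

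The Abca1 promoter (chr4:53159846-53160145, minus strand) is shown beside that of Abcc4 (chr14:118706170-118706469, minus strand), a pump of cyclic nucleotides and bile acids whose start stayed in state 1 in all groups.
Abca1: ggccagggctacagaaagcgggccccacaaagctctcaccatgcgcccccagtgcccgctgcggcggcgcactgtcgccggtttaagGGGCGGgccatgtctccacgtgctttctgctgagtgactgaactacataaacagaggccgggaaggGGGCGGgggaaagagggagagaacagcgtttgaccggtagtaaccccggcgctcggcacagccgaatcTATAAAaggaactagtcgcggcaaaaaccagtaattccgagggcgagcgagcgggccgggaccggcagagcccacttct
Abcc4: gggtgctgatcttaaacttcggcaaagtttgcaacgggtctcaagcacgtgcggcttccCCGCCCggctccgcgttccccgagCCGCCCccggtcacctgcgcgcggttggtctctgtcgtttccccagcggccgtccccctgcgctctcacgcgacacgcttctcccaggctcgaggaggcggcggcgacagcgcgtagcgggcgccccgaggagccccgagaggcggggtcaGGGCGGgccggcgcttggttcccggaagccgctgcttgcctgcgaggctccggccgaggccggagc
Abca1 holds 26 CpG, TATAAA 29 bases before the start and 2 GC boxes. Abcc4 holds 41 CpG and 3 GC boxes. The CpG count of a promoter went with the state of its start. Transporter promoters with more than 15 CpG, the median over all genes, had a start in states 1 to 5 in 18 of 19 cases in each group. That was 94.7%, against 84.7%, 84.1% and 84.8% of all such promoters. Those with 15 or fewer had one in 15, 14 and 13 of 27 cases. These shares were 55.6%, 51.9% and 48.1%, against 43.3%, 43.7% and 43.7% of all such promoters. The starts in the TSS states had a median of 18, 21 and 19 CpG, and the quiescent starts 5, 4 and 6. Over all 15660 matched genes these medians were 22, 23 and 23 against 3, 3 and 3. Of the 19 CpG-rich transporter promoters, 10 were in states 1 and 2 in each group (52.6%), against 74.3%, 67.3% and 60.8% of all CpG-rich promoters.

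**Figure D4:**
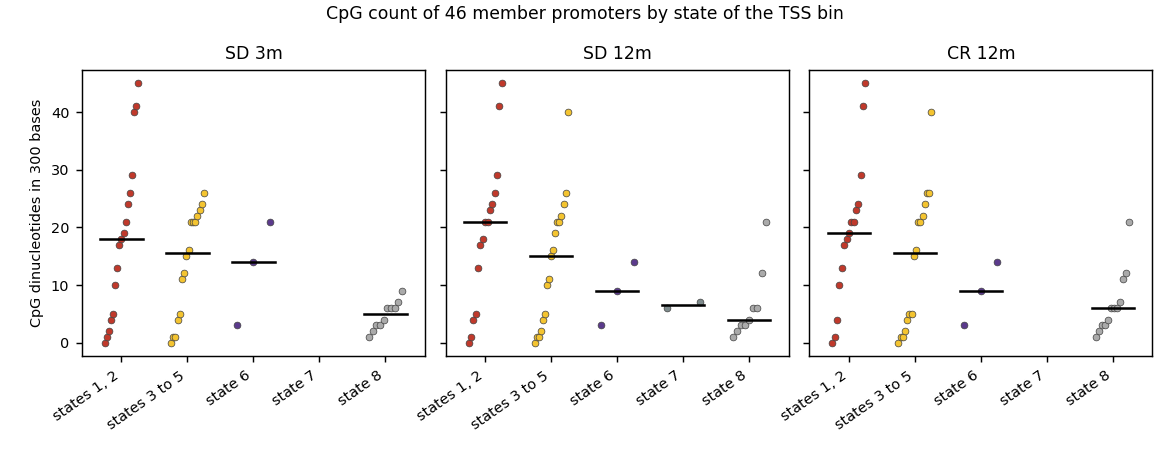
CpG dinucleotides in the 300 bases around the start (y axis) of 46 transporters, 1 point each, by the state of the TSS bin (x axis) in the 3 groups, with the median as a line. Quiescent starts have medians of 5, 4 and 6, and starts in states 1 and 2 medians of 18, 21 and 19.

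Transporters of mitochondria, peroxisomes and lysosomes were in active states at the TSS bin in all 3 groups, 7 of 7. Abcd3, which carries fatty acyl-CoA into peroxisomes, and Abcb10, which serves haem synthesis in mitochondria, were in state 1 throughout. Abcd3 had 19, 15 and 13 TSS-state bins and a fully active body, and Abcb10 had 11, 7 and 7 and a body active to 92.9%, 100% and 100%. Abcb6, tied to porphyrin handling, was in state 1, 1 and 2, and the lysosomal peptide transporter Abcb9 in state 3, 2 and 2, both with fully active bodies in every group. In Abcb6, state 5 covered 52.3% of the body in SD 3m and 0% in the 12-month groups, where state 3 rose from 31.8% to 68.2% and 88.6%. Abcb8 of the mitochondrial inner membrane moved from state 2 to state 3 at the TSS bin in both 12-month groups. Its body was active to 30.0%, 31.2% and 63.8%. Abcd4, needed for lysosomal cobalamin export, was in state 1, 1 and 4 with 52.6%, 47.4% and 71.1%, and the peroxisomal Abcd2 in state 2, 1 and 3 with 59.9%, 62.5% and 66.4%. Against SD 3m, the active body share of Abcb8 and Abcd4 thus rose by 10 points or more in CR 12m and not in SD 12m. TSS-state bins around the start numbered 8, 0 and 3 for Abcb8, 8, 6 and 3 for Abcd4 and 11, 12 and 10 for Abcd2. In CR 12m each of these genes had state 1 or 2 in the next bin downstream of the TSS bin.

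Among the other Abcc pumps, Abcc3, the blood-side exporter of bile acids and glucuronides (chr11:94343295-94392990, minus strand), was in state 2 with a fully active body in every group. Abcc4, Abcc5 and Abcc10 kept state 1 at the start, yet the active share of their bodies stayed at 12.4% to 39.4%. Abcc6, a liver gene whose loss causes ectopic calcification (chr7:45976380-46030286, minus strand), was 29.5%, 29.5% and 80.4% active. State 4 accounted for most of this rise, with 18.5%, 16.2% and 62.7% of bins. Its start was in state 1, 1 and 3. Abcc12 was quiescent at the start and 8.09%, 26.9% and 31.1% active. Abcc1, a pump of glutathione conjugates expressed at low level in hepatocytes (chr16:14361558-14474878, plus strand), fell in both groups, from 20.4% to 6.87% and 2.11%, and its start went from state 5 to 4 and 8. Around that start, 6, 2 and 0 bins were in TSS states. Of the sulfonylurea receptors of potassium channels, Abcc8 was quiescent at the start with 0% active and state 6 over 0%, 30.3% and 16.1% of its body, and Abcc9 was in state 5, 4 and 4 with 73.5%, 57.2% and 79.6% active.

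The Abca6-like genes, lipid transporters of unsettled function, form a run on chromosome 11 (chr11:109932206-110337716). Of the 5 TSS bins, 5, 2 and 2 were in the TSS states, while the run as a whole was active over 87.9%, 93.3% and 95.4% of bins. In SD 12m the count depended on reading a single bin. Abca5 and Abca8b had state 1 or 2 in the next bin downstream and kept the TSS class when neighbouring bins were read too. Abca5 went from state 1 to state 4 in both 12-month groups with 72.0%, 88.6% and 93.6% of the body active, and Abca9 from state 2 to state 3 with 94.7%, 96.7% and 100%. At Abca9, 11 bins of TSS states in SD 3m compared with 0 in the other groups. Abca6, Abca8a and Abca8b had bodies active to at least 82.4% in every group.

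Body coverage over the whole set is drawn in the plot of active share. At least 50% of the body was active in 31, 30 and 35 transporters (53.4%, 51.7% and 60.3%, against 50.7%, 52.2% and 52.9% of all genes). The median active share was 56.3%, 58.8% and 72.9%, against 51.8%, 56.7% and 61.2%. The 28 transporters at 50% or more in every group had a median length of 57.7 kb, and the 23 below 50% in every group one of 88.8 kb, against 16.8 and 16.2 kb over all genes of these classes. Between SD 3m and SD 12m, 9 transporters rose by 10 points or more (15.5%, against 11.9% of all genes) and 5 fell (8.62%, against 8.14%). The 5 that fell were Slco1a1, Abcg2, Abcc9, Abcg3 and Abcc1. Between SD 3m and CR 12m, 16 rose (27.6%, against 15.3%) and 2 fell, Abcg3 and Abcc1 (3.45%, against 8.10%). Related gene families also rose more often than all genes in that comparison. The shares were 31.3% of 99 cytochrome P450 genes, 21.0% of 362 other solute carriers (Slc) and 18.5% of 65 Ugt, Gst and Sult genes. Falls were found in 6.06%, 8.84% and 1.54% of these families. Between SD 12m and CR 12m, 10 transporters rose (17.2%, against 9.50% of all genes) and 0 fell (against 4.99%). The median change was 0 points in each comparison, for the transporters and for all genes. No test was run, and the counts depend on state 5: with states 1 to 4 counted as active, 17 transporters rose in SD 12m (29.3%, against 26.2% of all genes) and 31 in CR 12m (53.4%, against 30.5%).

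**Figure D5:**
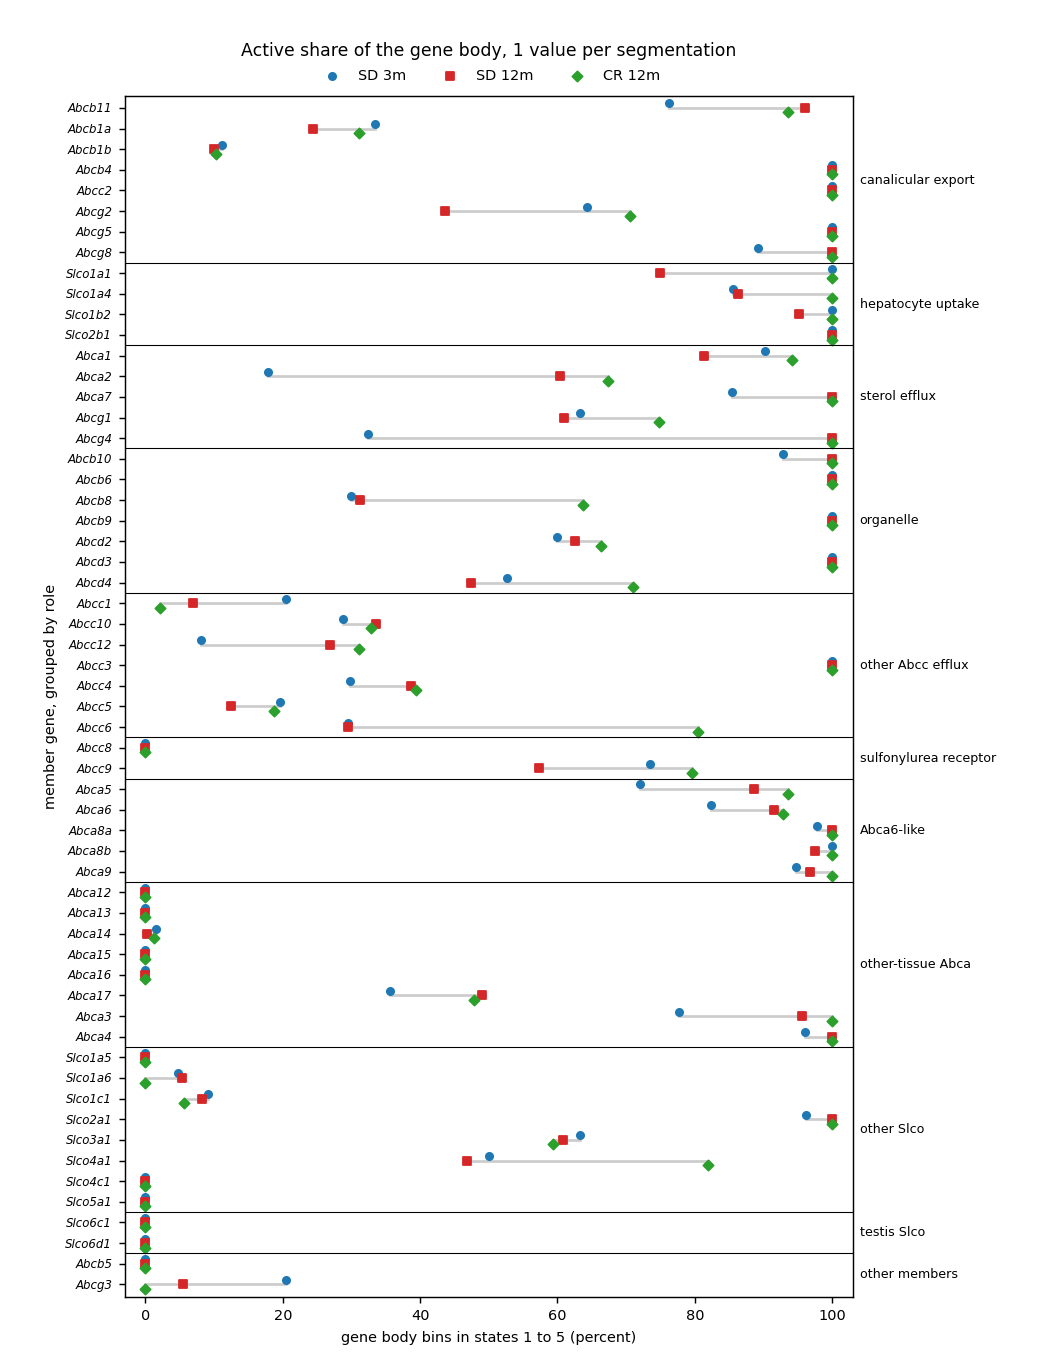
Percent of gene body bins in states 1 to 5 (x axis) for each of the 58 transporters (rows, grouped by role) in SD 3m (circles), SD 12m (squares) and CR 12m (diamonds), 1 value per segmentation, joined by a grey line. Against SD 3m, Abcg4 and Abca2 rise most and Slco1a1 and Abcg2 fall most in SD 12m, and Abcg4 and Abcc6 rise most in CR 12m.

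Within the bodies, state 3 gained and state 5 lost ground. State 3 covered 15.5%, 19.8% and 23.3% of all transporter body bins and state 5 covered 9.69%, 4.80% and 4.11% (all genes: 17.2%, 18.3% and 21.2% for state 3, and 9.43%, 5.51% and 4.76% for state 5). State 3 rose by 10 points or more in 15 transporters in SD 12m (25.9%, against 18.2% of all genes) and in 27 in CR 12m (46.6%, against 30.1%). It fell by as much in 0 of the 58 in either comparison, and in only 3.77% and 2.56% of all genes. State 5 fell by 10 points or more in 15 in SD 12m (25.9%, against 21.3%) and 18 in CR 12m (31.0%, against 24.2%). Abcb4, Abcb6, Abcb9, Abcb10, Abcc2, Abcd3, Abcg5 and Abcg8 were among those whose state 3 rose in both.

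Many transporters of other organs had inactive bodies, and here states 6 and 7 changed. Of the 8 Abca genes listed for other tissues, 4 had a start in states 1 to 5 in each group. In 2 of the 8, at least 50% of the body was active in each group. State 6 gained 10 points or more of the body in 9 transporters in SD 12m (15.5%, against 9.09% of all genes) and in 6 in CR 12m (10.3%, against 7.28%). It lost as much in 5 (8.62%, against 6.09%) and 6 (10.3%, against 6.73%). Slco5a1, an orphan carrier, changed from state 8 to state 6 at the start in both 12-month groups, and state 6 covered 0, 21 and 21 of the bins around it and 12.8%, 66.0% and 48.6% of the body. The Abca16 start also went from state 8 to state 6. State 6 covered 9, 21 and 14 of the 21 bins around it and 29.7%, 69.4% and 55.5% of the body. A second curated Abca16 start, 12054 bases downstream, was in state 6 in every group. The neighbour Abca15 had state 6 at the start in every group and over 54.3%, 80.1% and 68.7% of its body. Abcb5, studied in melanoma, stayed quiescent at the start while state 6 covered 20.2%, 48.8% and 71.3%. In the opposite direction, state 6 covered 51.0% of Abca14 and 48.3% of Abca17 in SD 3m and 0% of both in the 12-month groups. Both had a start in enhancer states in every group. The Abca17 body was 35.6%, 49.0% and 47.8% active, and that of Abca14 1.48%, 0.164% and 1.32%. The start of Slco4c1, a carrier of the kidney, went from state 6 to state 8 in both, while state 6 covered 23.5%, 30.2% and 0% of its body. Abca12, which moves lipids in the skin, and Abca13 were quiescent at the start in every group and had 0% active, with state 6 at 7.21%, 32.3% and 8.02% of Abca12 and at 0%, 21.7% and 0% of Abca13. In all, 11 of the 58 transporters had 0% of the body active in every group, as did 25.7% of all genes.

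State 7 covered most of the body of 2 testis genes in SD 12m. Slco6c1 (chr1:97059449-97128303, minus strand) and Slco6d1 (chr1:98421124-98509380, plus strand) had a TSS bin in state 8, 7 and 8. State 7 covered 1.74%, 60.3% and 12.2% of Slco6c1 and 0%, 74.7% and 21.0% of Slco6d1, so SD 12m stood highest for both. Over all transporter bodies state 7 covered 1.84%, 4.93% and 1.53%, against 1.43%, 5.36% and 2.21% over all gene bodies. The next largest gains in SD 12m were at Abcg3, a rodent-specific relative of Abcg2 (44.4%, 54.8% and 47.3%), at Abca13 (0.853%, 9.78% and 0.893%) and at Slco5a1 (3.21%, 10.3% and 1.76%). At the TSS bin, state 7 held 2 of the 58 transporters in SD 12m (3.45%, against 3.68% of all genes). It was absent from the 2 kb around the longest-transcript start of every transporter in SD 3m and CR 12m. Over all genes it held only 1.39% and 1.43% of such bins in these groups. Abca3, a surfactant lipid transporter of the lung, was by contrast active in liver, in state 2 throughout with 77.7%, 95.5% and 100% of the body. Abca4, the retinoid transporter of photoreceptors, was also active, with 96.0%, 100% and 100%.

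The other Slco genes varied. Slco2a1, the prostaglandin carrier, was in state 2, 1 and 2 with 96.2%, 100% and 100% of the body active, and state 3 covered 50%, 73.5% and 83.0% of it. Slco3a1 (chr7:74275418-74554780, minus strand), at 279.4 kb the longest of the largely active genes, went from state 1 to state 4 at the start in both 12-month groups, and its TSS-state bins went from 16 to 2 and 3. The summed share of states 1 to 5 in its body changed little, at 63.4%, 60.8% and 59.4%. Within that share, state 5 covered 55.0%, 31.5% and 44.7% of the body and state 3 covered 7.59%, 22.4% and 14.4%. Slco4a1, a thyroid hormone carrier, was 50%, 46.8% and 81.9% active, with state 5 alone on the standard diet and mainly states 3 and 4 under restriction. Slco1a6 went from 4.77% to 0% in CR 12m. It belonged to the 5 largest falls in CR 12m with Abcg3, Abcc1, Slco3a1 and Slco1c1, of which only Abcg3 (20.5% to 0%) and Abcc1 reached 10 points.

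The wider pathway of bile acid and xenobiotic handling, counted as a list of 20 genes that are no transporters of these families, was active in nearly all genes. It comprises carriers such as Slc10a1, enzymes such as Cyp7a1, and sensors such as Nr1h4. The TSS bin was in states 1 to 5 for 19 of 20 genes in each group, the exception being Slc51a in state 8, and the median body was 100% active in each. Against SD 3m, its bodies rose by 10 points or more in 3 genes at 12 months on the standard diet and in 4 under restriction (of 20 each, against 11.9% and 15.3% of all genes), and fell by as much in 0 (against 8.14% and 8.10%). Stellate cell markers lost active coverage: the active body share fell by 10 points or more in 4 of 5 in both 12-month groups (against 8.14% and 8.10% of all genes), and Reln, Des and Dcn had 0% active in CR 12m against 22.8%, 54.8% and 100% in SD 3m. Among the hepatocyte markers, body shares reached down to 78.4%, 88.2% and 90.9% and up to 100% in each group. The part of cell composition in the transporter values was not tested.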

How the data were processed

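ChIP-seq libraries for H3K4me3, H3K27me3, H3K27ac and H3K4me1 came from formalin-fixed, paraffin-embedded mouse livers. The authors aligned reads to mm10 with BWA 0.6.2-r126, filtered with SAMtools 0.1.18 (per the labels), removed unmapped, low-quality and duplicate reads, merged libraries per group and mark, and learned 8 states with ChromHMM. The deposited values are state labels, 1 for each of 13168874 bins of 200 bp in each of 3 segmentations. Each was taken for the group its name states, and chromosome lengths matched GRCm38.

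Genes were the longest curated RefSeq transcripts (GRCm38.p6), and 598 genes without one were left out. The TSS bin, the bins within 2 kb and all bins overlapping the body were read with Python 3.11.15, numpy 2.4.6 and pandas 2.3.3, and Wilson intervals came from scipy 1.17.1. States 1 to 5 were called active and a change of 10 points in body share a rise or fall. The code was tested on simulated data and recovered 200 of 200 planted changes among 20021 genes. Genes named in full were the canalicular, uptake, sterol and organelle lists, the 5 largest rises and falls of active share and gains of states 6 and 7, and starts with the same new class in both 12-month groups. Members and lists were chosen with earlier results of these data known. Alternatives covered the choice of start, the bins read, the states called active, the threshold, overlapping genes and runs of neighbours. Mappability of near-identical copies was not analysed. Promoter entries were not used for Abca6, Abcb8, Abcc1, Abcc3, Abcc6, Abcc8, Abcd2, Abcd4, Abcg1, Abcg4, Slco3a1 and Slco5a1.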

Additional observations from a re-analysis of the deposited data

How the results depend on the processing

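The 18 counts were recomputed under those of 11 other settings that apply to them, which gave 105 values, and 90 of these were within 1.5 times the reported count. All 105 values count transporters only. With the most frequent class within 2 kb of the TSS, 7 transporters in SD 12m and 6 in CR 12m were in the TSS class, and 8 changed class between SD 12m and CR 12m. With the 8 states in place of classes, 33 changed between SD 3m and CR 12m and 25 between SD 12m and CR 12m. With states 1 to 4 counted as active, 17 rose in SD 12m and 31 in CR 12m against SD 3m, 0 fell in CR 12m against SD 3m, and 2 fell in CR 12m against SD 12m. With a threshold of 20 points, 2 rose and 2 fell in SD 12m, and 8 rose and 1 fell in CR 12m, against SD 3m. With a threshold of 5 points, 9 fell in SD 12m against SD 3m, and 2 fell in CR 12m against SD 12m. Fewer states, a finer division or another threshold change these counts by construction. Leaving out overlapping genes (53 left) or keeping 1 gene of each run of neighbours (44 left) kept every count within 1.5 times. The lowest state over all curated starts, chosen after seeing the data, gave 26, 22 and 18 transporters in the TSS class. No paired analysis was possible because each group has 1 segmentation of merged libraries, and no library could be left out. Depth per library is unknown here, and library numbers per mark differed between groups.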
